A study of Ovis aries with 16 samples.

Results

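MIR99A, MIR125B and the long non-coding RNA gene LOC105602212 were followed across small RNA libraries from liver and muscle of 8 female sheep. They are 3 of the 4920 rows in the deposited tables: 2 of the 105 rows of the microRNA (miRNA) table and 1 of the 2973 rows of the long non-coding RNA (lncRNA) table. They were taken by name, with earlier results of these data known. The groups were liver of 4 ewes given prenatal testosterone (prenatal T), liver of 4 control ewes, muscle of the same 4 prenatal T ewes and muscle of the same 4 control ewes. Ewes 48, 185, 233 and 255 were exposed and ewes 98, 131, 132 and 201 were controls. The labels used here give neither the age of the animals, nor the dose, nor what the control ewes received, nor which muscle was taken. RNA came from whole tissue, so fewer cells of a type and less RNA per cell cannot be told apart.

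A miRNA is a short RNA that is trimmed from a hairpin in a longer transcript and lowers the output of matching messenger RNAs. The miR-99/100 family is known for repressing the growth regulators mTOR and IGF1R. miR-125 is the vertebrate relative of worm lin-4, and miR-125b has been reported in mouse muscle to repress IGF2. In vertebrates, genes of these families tend to lie in clusters with let-7, and in human a long transcript named MIR100HG holds the hairpins of miR-100, let-7a and miR-125b.

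In the RefSeq annotation of the sheep assembly ARS-UI_Ramb_v3.0, MIR125B lies inside LOC105602212, which the annotation calls a lncRNA and which also holds the transfer RNA gene TRNAC-ACA. No other annotated miRNA gene shares its chromosome. MIR99A lies on another chromosome, inside LOC121816219, a gene called protein-coding, with MIRLET7C as its nearest miRNA gene. LOC105602212 is thus the annotated host of MIR125B and not of MIR99A. All 105 miRNA rows and 1372 of the 2973 lncRNA rows matched this annotation by symbol. The build behind the deposited tables is not given in the sources used here, so no coordinates are printed, and the annotation gave gene bounds without exons. In human and mouse the miR-125b sequence has more than 1 gene copy, and miR-99a and miR-100 are near-identical, so how reads were shared between such copies is an uncertainty of both miRNA rows.

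Depth behind these rows was high. Whole reads were recovered from the deposited values. A library held 206304 to 755344 miRNA reads and 38399 to 124174 lncRNA reads in liver, and 113522 to 885316 and 122749 to 926854 in muscle. The lowest count of any member was 481 reads, for LOC105602212 in muscle of ewe 255, which is 0.392% of lncRNA reads there (95% Wilson interval 0.358 to 0.428%, counting error only). Of the tissue markers, the liver miRNAs MIR148A and MIR194 together took 9.97 to 14.6% of miRNA reads in liver and 0.186 to 0.351% in muscle, while the muscle miRNA MIR133 took 0.0290 to 0.227% in liver and 37.2 to 56.4% in muscle. The lowest MIR133 share in muscle was that of ewe 255, and the highest in liver was that of control ewe 98. The library codes fall into a series under 100, with 9 libraries, and a series over 100, with 7. Liver of ewes 48 and 98 belongs to the first with 7 of the 8 muscles, and muscle of ewe 255 to the second. What the code series stands for is not stated.

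MIR99A was among the most abundant miRNAs in both tissues. Its deposited normalised read values in liver were 39018, 39830, 22177 and 30869 in prenatal T ewes 48, 185, 233 and 255, against 26355, 30855, 33011 and 30907 in control ewes 98, 131, 132 and 201. In muscle they were 14566, 16576, 13832 and 14930 in prenatal T ewes, against 15374, 14686, 17420 and 14608 in control ewes, in the same order. In liver the exposed ewes held both the highest values and the lowest one, and in both tissues the groups overlapped. The authors scaled each tissue on its own, so these values compare ewes within a tissue only. MIR99A ranked between 2 and 5 among the miRNAs of the liver libraries and between 4 and 6 in muscle.

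MIR125B was less abundant. Its normalised values in liver were 10056, 13005, 10327 and 12244 in prenatal T ewes, against 9930, 11360, 11166 and 14280 in control ewes. In muscle they were 10117, 10618, 9839 and 10358 in prenatal T ewes, against 8769, 9025, 11168 and 9533 in control ewes. The exposed muscles lay inside the range of the control muscles, and the highest liver value was that of control ewe 201. MIR125B ranked between 8 and 11 in liver and between 7 and 9 in muscle.

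LOC105602212 had normalised values in liver of 8188, 5646, 4935 and 4930 in prenatal T ewes, against 3615, 5405, 4989 and 4809 in control ewes. In muscle they were 1884, 3351, 1992 and 1176 in prenatal T ewes, against 1553, 2101, 1759 and 2110 in control ewes. The exposed muscles held both the highest value, in ewe 185, and the lowest, in ewe 255. In liver the highest value was that of ewe 48 and the lowest that of ewe 98, the pair of liver libraries with codes under 100. The row ranked between 3 and 5 among lncRNAs in liver and between 6 and 9 in muscle.

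Reads were also scaled to 1000000 reads of the 4 RNA classes (miRNAs, lncRNAs, small nucleolar and small nuclear RNAs) in both tissues. A few rows hold much of this total in muscle. On this scale the median miRNA was itself higher in liver, with a log2 fold change of 2.22 in prenatal T ewes and 2.33 in control ewes. For MIR99A and MIR125B the direction between tissues is therefore that of this scale only. LOC105602212 was higher in liver on every scale used below, but was not called on each of them. MIR99A averaged 72927 ± 14714 in prenatal T liver and 63794 ± 4784 in control liver, against 18745 ± 3812 in prenatal T muscle and 18711 ± 2262 in control muscle (SD, n = 4 each). MIR125B averaged 25407 ± 2253 in prenatal T liver, 24580 ± 3264 in control liver, 12812 ± 2527 in prenatal T muscle and 11608 ± 1707 in control muscle. LOC105602212 averaged 11923 ± 1863, 11130 ± 412, 2509 ± 693 and 2238 ± 240 in these groups. For each of the 3 RNAs the order was liver above muscle with no overlap on this scale. Within a tissue the exposed and control groups differed by less than 1 SD of the exposed group. By the smaller SD of the control group, MIR99A in liver and LOC105602212 in both tissues differed by more than 1 SD, with overlapping ranges. MIR99A exceeded MIR125B in all 16 libraries, and both exceeded the lncRNA row. RNAs of such different length are compared here as reads, not per length.

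**Figure D1:**
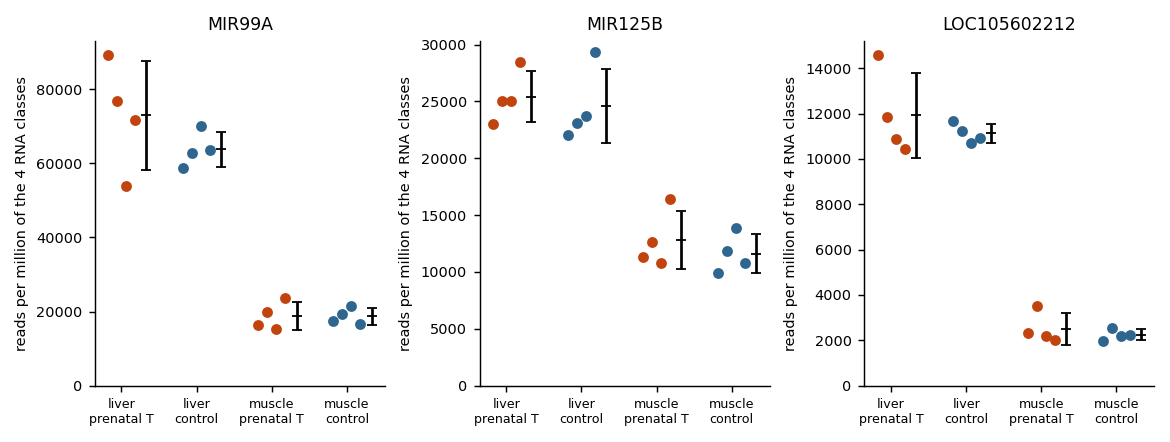
Reads per 1000000 reads of the 4 RNA classes (vertical axis, linear from 0) for MIR99A, MIR125B and LOC105602212 in the 4 groups. Points are libraries in ewe order, and bars are the mean ± SD over 4 ewes. On this scale every liver library lies above every muscle library for each RNA, while exposed and control ewes overlap within a tissue.

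Exposure to testosterone before birth was the study's main comparison, and none of the 3 RNAs passed its test in either tissue. In liver, limma on log2(value + 1) gave a log2 fold change, prenatal T over control, of 0.09 (SE 0.18, 95% interval -0.30 to 0.48) for MIR99A. It was -0.03 (SE 0.17, -0.39 to 0.33) for MIR125B and 0.32 (SE 0.23, -0.19 to 0.83) for LOC105602212. The Benjamini-Hochberg adjusted p-values from limma were 0.959, 0.963 and 0.890. In muscle the log2 fold changes were -0.05 (SE 0.12, -0.31 to 0.21), 0.09 (SE 0.12, -0.17 to 0.36) and 0.07 (SE 0.29, -0.58 to 0.72), with adjusted p-values from limma of 0.884, 0.788 and 0.966. The intervals leave room for changes of up to 1.40-fold for MIR99A and 1.77-fold for LOC105602212 in liver.

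These 0 calls among 3 stand beside a background of few calls. Of all rows tested, 0 of 81 miRNAs (0%) and 0 of 121 lncRNAs (0%) were called in liver, and 0 of 64 miRNAs (0%) and 4 lncRNAs (3.51%) in muscle. Unadjusted limma p-values were under 0.05 for 0 miRNAs and 0 lncRNAs in liver and for 5 and 7 in muscle. edgeR on the recovered reads called 0 miRNAs in either tissue, and so did DESeq2. The count of 4 lncRNAs lay between 1 and 4 when single ewes were left out, and LOC105602212 was among the calls in none of these fits.

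In liver each exposure group holds 1 library coded under 100, so a covariate for the code series cannot move the log2 fold changes. With it they were 0.09, -0.03 and 0.32 by design (limma adjusted p = 0.937, 0.937 and 0.789). With the 6 livers coded over 100 alone, 3 against 3, which leaves out ewes 48 and 98, the log2 fold changes were -0.07 for MIR99A, -0.05 for MIR125B and 0.03 for LOC105602212. In muscle the series over 100 holds a single library, that of ewe 255, and without it the log2 fold change of LOC105602212 was 0.32. Without ewe 185 it was -0.19, so its sign in muscle rests on single ewes. The difference of the exposure effect between tissues, liver minus muscle on the log2 scale, was 0.14 (SE 0.22) for MIR99A, -0.12 (SE 0.21) for MIR125B and 0.24 (SE 0.38) for LOC105602212. Their adjusted p-values from limma were 0.841, 0.860 and 0.914, where 0 of 76 miRNAs (0%) and 0 lncRNAs (0%) were called. With the ewe as replicate block these lay between 0.819 and 0.878, and the count of calls stayed at 0 for both classes.

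Of 8 partners in clusters or families, 4 had no row under their names and were not analysed here. The 4 with rows were MIRLET7C, MIRLET7A, MIR10A and MIR10B. The let-7 miRNAs are known for repressing growth genes such as LIN28, and the miR-10 genes lie in the HOX clusters in vertebrates. None of the 4 passed the exposure test in either tissue. MIR10B was the miRNA with the lowest p in muscle, with a log2 fold change of -0.42 (SE 0.16, limma adjusted p = 0.559) and normalised values of 1145, 1133, 1347 and 913 in prenatal T muscle, against 1361, 1356, 1764 and 1567 in control muscle. MIR10A had -0.45 (SE 0.21, limma adjusted p = 0.559) there. MIRLET7C, the neighbour of MIR99A, had -0.20 (SE 0.21) in liver and 0.22 (SE 0.15) in muscle. These were -0.024 in liver without ewe 48, -0.076 in liver without ewe 201 and 0.075 in muscle without ewe 255.

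Counted as lists, 0 of the 7 let-7 family members tested and 0 of the 8 miRNAs tested from a list of androgen-responsive miRNAs, which holds MIR99A and MIR125B, passed the exposure test in either tissue. The median log2 fold change of the let-7 list was -0.20 in liver and 0.03 in muscle, where the medians over all miRNAs tested were 0.01 and -0.05. For the androgen-responsive list the medians were 0.04 in liver and -0.04 in muscle.

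**Figure D2:**
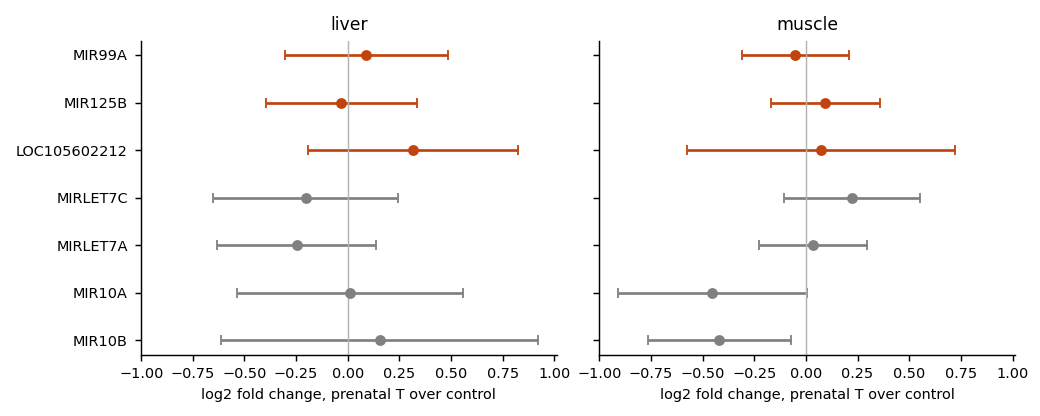
Log2 fold change, prenatal T over control (horizontal axis), with 95% limma intervals, in liver and in muscle, 4 ewes a group. Coloured rows are MIR99A, MIR125B and LOC105602212, and grey rows are their partners. The intervals of all 3 RNAs span 0 in both tissues.

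Liver and muscle differed more than the exposure groups did for MIR125B and LOC105602212, and less clearly so for MIR99A. For both miRNAs the size and the direction depended on what the libraries were scaled to. With median-of-ratios factors, which hold the typical miRNA near level, the log2 fold change of MIR125B, liver over muscle, was -1.08 (SE 0.14, limma adjusted p = 9.02e-06) in prenatal T ewes and -1.11 (SE 0.17, limma adjusted p = 0.000107) in control ewes. MIR99A had -0.12 (SE 0.17, limma adjusted p = 0.538) in prenatal T ewes and -0.42 (SE 0.14, limma adjusted p = 0.0193) in control ewes. LOC105602212 was higher in liver, by 1.40 (SE 0.34, limma adjusted p = 0.00658) in prenatal T ewes and 1.08 (SE 0.26, limma adjusted p = 0.00485) in control ewes. Calls were common in this comparison: 47 of 75 miRNAs (62.7%) and 60 of 119 lncRNAs (50.4%) in prenatal T ewes, and 58 of 76 miRNAs (76.3%) and 79 of 127 lncRNAs (62.2%) in control ewes. MIR125B and LOC105602212 were called in both sets of ewes. By these shares a call within a set was common, and the share of rows called in both sets was not computed.

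Scaled to the reads of the 4 classes instead, all 3 were higher in liver. MIR99A was then 3.89-fold higher in prenatal T ewes and 3.42-fold in control ewes, MIR125B 2.00-fold and 2.12-fold, and LOC105602212 4.83-fold and 4.99-fold. The highest of these 6 limma adjusted p-values was 3.46e-05. Scaled to the reads of the own class, the log2 values were 1.18 and 1.07 for MIR99A, 0.22 and 0.38 for MIR125B, and 4.04 and 3.98 for LOC105602212, in prenatal T and control ewes; of these, MIR125B in prenatal T ewes did not pass (limma adjusted p = 0.251). The share of miRNA calls that were higher in liver was 57.4% in prenatal T ewes and 55.2% in control ewes with median-of-ratios factors. It was 88.1% and 93.5% on the reads of the class, and 97.1% and 94.6% on the reads of the 4 classes. For lncRNA calls this share was 55.0% and 49.4%, then 89.8% and 91.7%, then 75.7% and 81.1%.

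The scalings shift every row together, so a value relative to the median row does not depend on them as strongly. The median log2 fold change of miRNAs in prenatal T and control ewes was 0.20 and 0.13 with median-of-ratios factors, 1.45 and 1.62 on the reads of the class, and 2.22 and 2.33 on the 4 classes. Relative to the median miRNA, MIR125B had log2 values of -1.27 to -1.22 in prenatal T ewes and -1.25 to -1.24 in control ewes on these 3 scales. MIR99A had -0.32 to -0.26 in prenatal T ewes and -0.56 to -0.55 in control ewes. LOC105602212 stood above the median lncRNA by 1.32 to 1.48 in prenatal T ewes and 1.13 to 1.39 in control ewes. Relative to the median of its own class, the lncRNA row was higher in liver and the miRNA it holds was lower in liver, in both sets of ewes.

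A few rows held much of the muscle reads. MIR133 took 50.3% ± 8.85 of miRNA reads in prenatal T muscle and 52.5% ± 2.39 in control muscle, and the lncRNA rows LOC105604459 and LOC105603743 together took 91.5% ± 1.88 and 89.4% ± 2.28 of lncRNA reads (SD, n = 4). With these rows left out of the totals, MIR99A took 8.78% ± 1.68 of the remaining miRNA reads in prenatal T liver against 7.82% ± 0.780 in prenatal T muscle, and 7.83% ± 0.443 in control liver against 7.85% ± 0.417 in control muscle. MIR125B took 3.07% ± 0.301 in prenatal T liver against 5.34% ± 0.307 in prenatal T muscle, and 3.02% ± 0.384 in control liver against 4.87% ± 0.442 in control muscle. LOC105602212 took 8.02% ± 1.64 of the remaining lncRNA reads in prenatal T liver against 5.99% ± 2.03 in prenatal T muscle, and 7.17% ± 0.233 in control liver against 4.39% ± 0.953 in control muscle. On this scale, chosen after the data were seen, the limma call of LOC105602212 held in control ewes (adjusted p = 0.0216) and not in prenatal T ewes (adjusted p = 0.146). That of MIR99A did not hold in control ewes (adjusted p = 0.976).

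The MIR99A call with median-of-ratios factors rested on few libraries. It was lost without control ewe 131 (log2 fold change -0.47, limma adjusted p = 0.0527) and without control ewe 132 (-0.38, limma adjusted p = 0.0847). The LOC105602212 call in prenatal T ewes was lost without ewe 48 (1.19, limma adjusted p = 0.0602). MIR125B kept its call when any single ewe was left out.

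**Figure D3:**
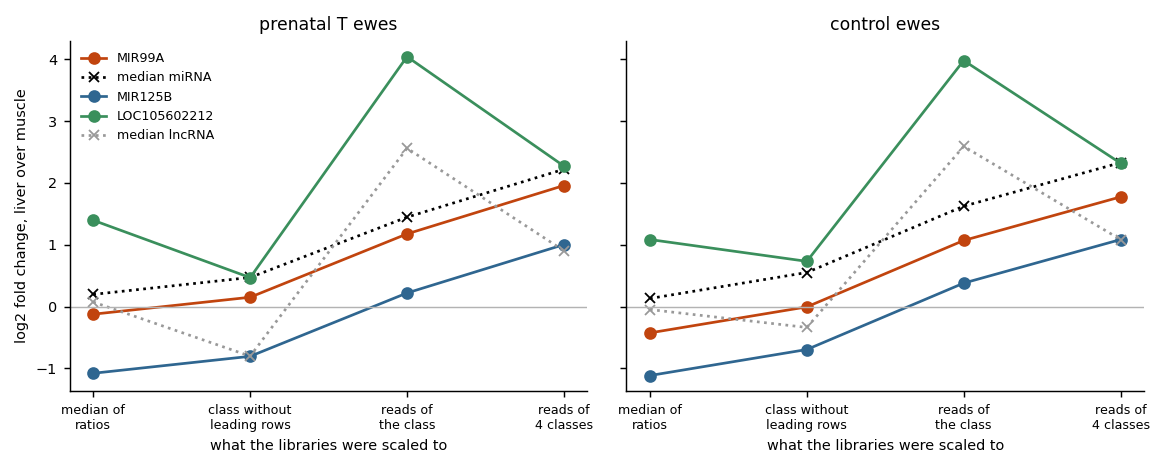
Log2 fold change, liver over muscle (vertical axis), of MIR99A, MIR125B and LOC105602212 under 4 scalings of the libraries (horizontal axis), in prenatal T and control ewes; the lines join values of the same RNA. Crosses are the median over all miRNAs or lncRNAs tested. MIR99A and MIR125B cross 0 with the scaling but stay below the median miRNA, and LOC105602212 stays above the median lncRNA.

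A ratio of reads within 1 library needs no scaling, and it showed that the lncRNA row and its miRNA differed between tissues by unlike amounts. The reads of LOC105602212 are small RNA reads assigned to a gene that also holds TRNAC-ACA. Which part of the gene they came from was not tested, so they are not shown to be reads of the long transcript itself. MIR100, which MIR100HG holds in human, had no row under its name. LOC105602212 reads per MIR125B read were 0.633, 0.472, 0.433 and 0.366 in liver of prenatal T ewes 48, 185, 233 and 255, against 0.205, 0.279, 0.201 and 0.122 in their muscle. In control ewes 98, 131, 132 and 201 they were 0.528, 0.486, 0.451 and 0.372 in liver, against 0.200, 0.216, 0.158 and 0.206 in muscle. The lowest liver ratio exceeded the highest muscle ratio. The ratio was 2.38-fold higher in liver on average, in 8 of 8 ewes, with folds between 1.70 and 3.08. In a two-sided exact sign-flip permutation test this gave p = 0.00781, the smallest that 8 ewes allow, and 0.0352 after Benjamini-Hochberg adjustment over the 9 ratio tests. With single ewes left out it passed after adjustment in 1 of 8 runs, in tests whose smallest p is larger.

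The MIR99A to MIR125B ratio was also higher in liver. It averaged 2.90 ± 0.752 in prenatal T liver and 2.62 ± 0.332 in control liver, against 1.46 ± 0.0681 in prenatal T muscle and 1.62 ± 0.0985 in control muscle (SD, n = 4 each). It was 1.77-fold higher in liver, in 8 of 8 ewes, with folds between 1.41 and 2.69 (two-sided exact sign-flip permutation p = 0.00781, adjusted p = 0.0352). With single ewes left out it too passed after adjustment in 1 of 8 runs. Liver ratios spread from 2.15 in ewe 233 to 3.88 in ewe 48, while muscle ratios stayed between 1.41 and 1.75. LOC105602212 per MIR99A read was 1.35-fold higher in liver, in 7 of 8 ewes, and did not pass after adjustment (two-sided exact sign-flip permutation p = 0.0234, adjusted p = 0.0703). Ewe 185, whose muscle had the highest LOC105602212 value, was the exception, with 0.864-fold.

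Most livers and most muscles have library codes of different series, so the tissue and the series overlap. In 3 ewes both libraries have codes of the same series. Their LOC105602212 to MIR125B ratios were higher in liver by between 2.64-fold, in ewe 98, and 3.08-fold, in ewe 48, with ewe 255 between them. Their MIR99A to MIR125B ratios were 2.69-fold higher in liver in ewe 48, 1.51-fold in ewe 98 and 1.75-fold in ewe 255. In the other 5 ewes, whose libraries have codes of different series, the folds were 1.70 to 2.85 for LOC105602212 to MIR125B and 1.41 to 1.96 for MIR99A to MIR125B. For the first ratio, 2 of the 3 same-series ewes lay above all 5. Whether the series moves the size of the difference was not tested.

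No ratio passed the exposure test. LOC105602212 per MIR125B averaged 0.476 ± 0.113 in prenatal T liver and 0.459 ± 0.0660 in control liver, and 0.202 ± 0.0639 in prenatal T muscle and 0.195 ± 0.0254 in control muscle (SD, n = 4 each; two-sided exact permutation p = 0.914 in liver and 1 in muscle). The smallest p of the 6 exposure tests was that of MIR99A to MIR125B in muscle, which was 0.904-fold in prenatal T ewes (two-sided exact permutation p = 0.0857, adjusted p = 0.193). In this exact permutation test groups of 4 allow p = 0.0286 at the smallest, and the groups overlapped in all 6 tests.

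**Figure D4:**
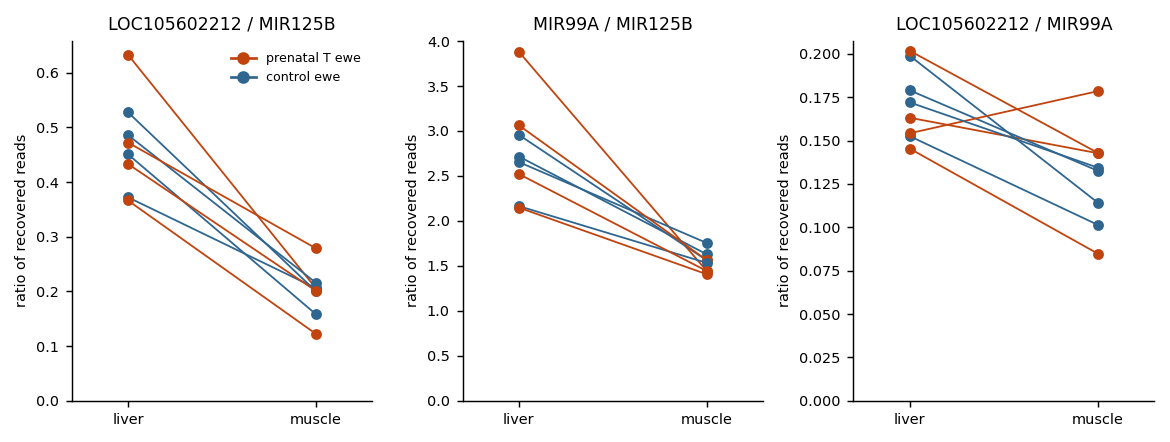
Ratios of recovered reads within a library (vertical axes, linear from 0) in liver and muscle of each ewe, with a line joining the libraries of an ewe. The ratios to MIR125B are higher in liver in 8 of 8 ewes, and LOC105602212 to MIR99A in 7 of 8.

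Other lncRNA rows that hold a miRNA put these ratios in context. The annotation places 56 miRNA rows inside 8 lncRNA rows. LOC105611269, which holds MIR181A-2, had 1.03 to 1.12 reads per miRNA read over the 16 libraries, and LOC105605445, which holds MIR221, had 1.19 to 1.32. For LOC105611269 the median was 1.09 in liver and 1.04 in muscle, and for LOC105605445 1.22 in liver and 1.24 in muscle. LOC105602212 had a median of 0.462 in liver and 0.203 in muscle, with 64525 reads against 185495 of MIR125B over all libraries. At the other end, LOC106991099, which holds MIR29A, had 90 reads in all against 50160, LOC114114896, which holds MIR143, had 11 against 261926, and LOC114117256, which holds MIR29B-1, had 17 against 527. LOC114116445, which holds MIR30A, had 0 reads against 86979. The eighth, LOC105606646, holds 49 miRNA rows, so it has no single partner. By medians LOC105602212 lay between these rows and the pair above 1, but the highest muscle ratio of LOC114117256, 0.129 on few reads, exceeded the lowest of LOC105602212, 0.122. A row with fewer reads than its miRNA, as LOC105602212 in every library, cannot count all of that miRNA's reads, and LOC114116445 counted none. Whether the other lncRNA rows count some of the reads of the miRNA they hold was not tested, since no exons were at hand.

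**Figure D5:**
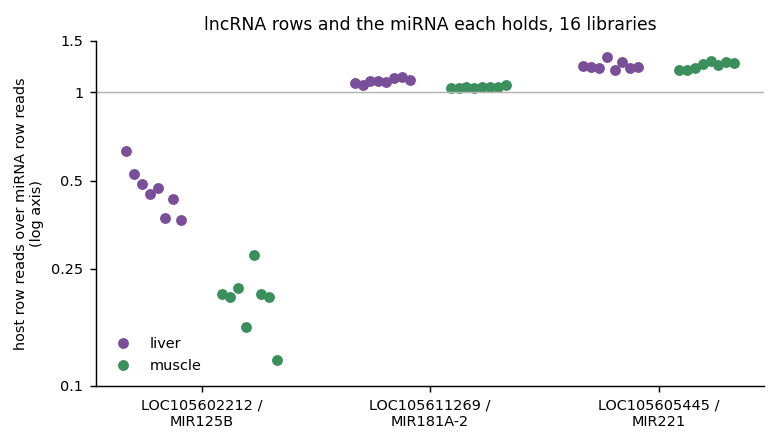
Reads of a lncRNA row over reads of the miRNA it holds (log vertical axis) in the 8 livers and 8 muscles, for LOC105602212 and the 2 rows with at least as many reads as their miRNA. Points are libraries, and the grey line marks equal reads. The LOC105611269 and LOC105605445 ratios lie just above 1 in both tissues, while those of LOC105602212 lie between 0.122 and 0.633 and differ by tissue.

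Across the 8 ewes, no relation between LOC105602212 and MIR125B was detected. On log2 normalised values, Pearson's r was -0.06 in liver (exact permutation p = 0.916) and 0.11 in muscle (exact permutation p = 0.808), with Spearman's rho of 0.00 and -0.02. With MIR99A, the miRNA on the other chromosome, r was 0.65 in liver (rho 0.62, exact permutation p = 0.0822 and 0.115, both over 0.6 after adjustment over 9 relations) and 0.59 without ewes 48 and 98. In muscle it was 0.21. MIR99A and MIR125B had r = 0.33 in liver and 0.57 in muscle (exact permutation p = 0.430 and 0.141), and without the pair of ewes farthest from the median these turned to -0.10 and -0.42. Liver and muscle of the same ewe had r = 0.50 for MIR99A, 0.22 for MIR125B and 0.29 for LOC105602212 (exact permutation p = 0.209, 0.594 and 0.457). None of the 9 relations passed on this scale, and the lowest adjusted p for Pearson's r was 0.628. On shares of the reads of the 4 classes, MIR99A and MIR125B in muscle passed, with r = 0.89 (exact permutation, adjusted p = 0.0203). In liver the sign of r turned on that scale. Both shares have the same denominator, and muscle of ewe 255 had the highest muscle share of both miRNAs.

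A further 24 relations with the partners were computed after the data had been seen. LOC105602212 was lower where MIRLET7A was higher in muscle, with r = -0.90 (exact permutation p = 0.00236, adjusted p = 0.0565) and rho = -0.95 (exact permutation p = 0.00114, adjusted p = 0.0137) over 8 ewes, and r = -0.82 without ewes 185 and 255. In liver the same pair had r = -0.79 (exact permutation p = 0.0456, adjusted p = 0.365), which became -0.26 without ewes 48 and 98. MIR125B and MIRLET7C had r = 0.81 (exact permutation p = 0.00821, adjusted p = 0.0985) and rho = 0.95 (adjusted p = 0.0137) in liver, with r = 0.66 without ewes 185 and 201. MIR99A and its chromosomal neighbour MIRLET7C had r = -0.23 in liver and 0.06 in muscle.

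By deviations from the group means over 16 libraries, the miRNAs most like MIR99A among 63 compared were MIR148A (r = 0.72), the liver-enriched miRNA, MIR218A (0.63) and MIR10B (0.58). Those most like MIR125B were MIRLET7C (0.69), MIR26A (0.60) and MIR191 (0.57). Among 81 lncRNA rows, those most like LOC105602212 were LOC101112542 (0.87), LOC105612547 (0.77) and LOC114116882 (0.69). For the lncRNA rows the likeness was present in both tissues, with r of 0.96 in liver and 0.84 in muscle for LOC101112542. For the miRNAs it lay mostly in liver: MIR148A had 0.87 in liver and 0.44 in muscle, and MIRLET7C 0.84 and 0.34. Libraries of a tissue share their scaling and differ in depth, so the values are a description and carry no test.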

How the data were processed

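Small RNA libraries from total RNA of liver and muscle of 8 ewes (16 libraries, 4 per group) were used. Per the submitters' processing notes the tools were STAR 2.6.0c, featureCounts 1.6.1 and cutadapt 3.2. Settings and genome build: not given in the sources used here. As values, the authors deposited a normalised signal: the reads of a library over a scaling factor, set for each RNA class within each tissue. Dividing each column by its smallest value above 0 returned whole reads for 100% of the values above 0 in each class, within 0.001 reads. The depth of each library, 239871 to 1819374 reads over the 4 classes, came from these reads.

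Exposure was tested within a tissue with limma 3.58.1 (R 4.3.3, trend) on log2(value + 1) of the deposited values, for rows with a mean of at least 5, with Benjamini-Hochberg adjustment within a class and a threshold of 0.05. Such fold changes understate changes of low rows. For liver against muscle, the recovered reads were given common median-of-ratios factors. edgeR 4.0.16 and DESeq2 1.42.0 on recovered reads were alternatives, with other scalings, filters, pseudocounts, left-out ewes and the ewe as replicate block. The limma, edgeR and DESeq2 fits were also run on simulated data, and the ratio and correlation tests were not. Ratios and correlations were tested by exact permutation (Python 3.11.15, scipy 1.17.1).

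A number shared by the titles of a liver and a muscle library was taken to mark 1 ewe. The deviations of such pairs from the group means had a median correlation of -0.07 over ewes for miRNAs and 0.01 for lncRNAs. Ewe 48 had 0.36 and 0.59, and ewe 255 had 0.44 and 0.42; in both ewes the 2 libraries have codes of the same series, as they do in ewe 98, which had 0.10 and -0.05. Libraries of a group differed by a chi-square per degree of freedom of 20.7 to 251, so none was a duplicate. Within a tissue each library is a separate ewe, so the p-values of the exposure tests measure the spread between animals. The main limma fits of liver against muscle, and of the difference of the exposure effect, did not use this pairing. Fits with the ewe as replicate block were their alternatives. Always named were the 3 members, their 4 partners, the 3 most alike rows of each member's table, and lncRNA rows holding a miRNA. The members, lists and tests were chosen with earlier results of these data known. MIR99B, MIR100, MIR125A and MIRLET7E had no row under these names and were not analysed here.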

Additional observations from a re-analysis of the deposited data

Results flagged for a closer look

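In 40 groups of 4 libraries tested for a library far from the other 3, 2 stood apart, and chance gives 2. Neither concerned MIR99A, MIR125B or LOC105602212. MIRLET7C, the neighbour of MIR99A, had 9246 normalised reads in muscle of prenatal T ewe 255, against 5831 to 6363 in the other 3 exposed muscles. MIR10A had 278 normalised reads in muscle of prenatal T ewe 48, against 166 to 176 in the other 3.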

How the results depend on the processing

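These rows held at least 481 reads in every library, so the spread between 4 ewes a group, more than depth, sets the intervals. In no alternative run did MIR99A, MIR125B or LOC105602212 pass the exposure test in either tissue. What the library code series stands for is not known, and reads of near-identical miRNA copies cannot be told apart. The cause of each change below was not tested.

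For exposure in liver, MIR125B (-0.03) became 0.027 scaled to the class and 0.053 scaled to the 4 classes. In the livers coded over 100, MIR99A became -0.069, MIR10A -0.26 and MIR10B -0.088. In muscle, MIR99A became 0.041 scaled to the class, and MIRLET7A -0.032 with the code series as covariate. For the difference of the exposure effect, LOC105602212 became -0.17 with edgeR and -0.047 scaled to the 4 classes, and 2 lncRNAs were called with no filter and 1 with DESeq2. For liver over muscle in prenatal T ewes, MIR99A became 1.18 scaled to the class, 1.96 scaled to the 4 classes and 0.15 scaled without the leading muscle rows. There MIR125B became 0.22 scaled to the class and 1.003 scaled to the 4 classes, and LOC105602212 fell short at 0.47 without the leading rows. In control ewes, on these scales, MIR99A became 1.07 and 1.77, and fell short at -0.18 with edgeR (adjusted p = 0.214) and -0.0039 without the leading rows, while MIR125B became 0.38 and 1.08. The count of lncRNA calls was 98 in prenatal T ewes and 133 in control ewes with no filter, and 108 in prenatal T ewes scaled to the class. The replicate block (same ewe) changed no call of the 3 RNAs and moved no count of calls by over 1.5 times: 50 miRNAs were called in prenatal T ewes and 58 in control ewes.

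Taking ratios of class shares in place of reads gave log2 differences of -0.10 for LOC105602212 to MIR125B for exposure in muscle, 0.0018 for LOC105602212 to MIR99A for exposure in liver, and 2.89 (exact permutation, adjusted p = 0.0234) for that same pair between tissues. With no replicate block that last difference, 0.43, passed (exact permutation, adjusted p = 0.0145). On shares of the 4 classes, r of MIR99A with MIR125B was -0.035 in liver and 0.89 in muscle (exact permutation, adjusted p = 0.0203).

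Leaving out each ewe in turn gave these ranges. For exposure in liver they were -0.014 to 0.27 for MIR99A, -0.10 to 0.070 for MIR125B, -0.28 to -0.024 for MIRLET7C, -0.20 to 0.14 for MIR10A and -0.12 to 0.45 for MIR10B. In muscle they were -0.10 to 0.0055 for MIR99A, 0.075 to 0.30 for MIRLET7C, -0.032 to 0.084 for MIRLET7A and -0.19 to 0.32 for LOC105602212. Calls of lncRNAs ran over 1 to 4 in muscle, 0 to 3 for the difference of effects, 39 to 67 for liver over muscle in prenatal T ewes and 48 to 82 in control ewes. For liver over muscle, LOC105602212 in prenatal T ewes ran over 1.18 to 1.67 and MIR99A in control ewes over -0.51 to -0.34. The log2 ratio of LOC105602212 to MIR125B ran over 1.20 to 1.32 between tissues, -0.11 to 0.15 for exposure in liver and -0.18 to 0.22 in muscle. MIR99A to MIR125B ran over 0.74 to 0.87 between tissues and -0.031 to 0.25 for exposure in liver, and LOC105602212 to MIR99A over 0.38 to 0.52 between tissues. With 7 ewes the adjusted p of both ratios to MIR125B was 0.0469 or 0.0703, in exact permutation tests whose smallest p is larger than with 8. Each of these ratios passed in 1 of the 8 runs. Correlations of LOC105602212 with MIR125B ran over -0.50 to 0.52 in liver and -0.24 to 0.36 in muscle, those of LOC105602212 with MIR99A in muscle over -0.24 to 0.43, and those of MIR125B between tissues over -0.065 to 0.49.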
